A study of Rattus norvegicus with 4 samples.

Results

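Genes of the peripheral glia of the carotid body (CB), the small organ at the carotid fork that senses blood oxygen, were followed in neonatal and adult rats. The set and the further gene lists below were chosen by symbol with earlier results of these data known. The shares of all genes given beside their counts are therefore a description, not a test. The set holds 8 genes, Sox10, Mbp, Pmp22, Pmp2, S100b, Gfap, Erbb3 and Egr2, of the 32883 genes in the deposited table. All 8 were listed once under their symbol and all 8 passed the filter on low counts, with 13843 genes tested in all. The 2 neonatal libraries came from Sprague-Dawley rats of day 5 and the 2 adult libraries from rats of day 21, without any genetic change or treatment, and the labels give pools of 6 pups or 3 adults for each library. The animals behind a library are therefore averaged. The p-values rest on the spread between pools, which the edgeR fit estimates for each gene partly from all genes tested. In bulk tissue of this kind, fewer cells of a type and less RNA per cell cannot be told apart.

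Schwann cells wrap the axons of the nerves that enter the CB, and sustentacular (type II) cells are glia that enclose clusters of glomus cells, the oxygen-sensing cells. Both descend from the neural crest and share Sox10, a transcription factor that peripheral glia need throughout life. In Schwann cells, neuregulin from axons signals through the receptor Erbb3 with its partner Erbb2, and Egr2 (Krox20), together with Sox10, switches on the genes of myelin after birth. Mbp, Pmp22 and Pmp2 encode proteins of peripheral myelin, while S100b, a calcium-binding protein, and Gfap, an intermediate filament protein, are common markers of glia, including sustentacular cells and Schwann cells that do not form myelin.

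The 250 bases before the RefSeq start of 4 of the genes are shown because they stand for the separate patterns described further on: Pmp22 and Egr2 differed between the neonatal libraries, Gfap differed between the ages, and S100b met neither description after TMM scaling. They are from the assembly GRCr8, on the strand of the gene, 5′ to 3′, and lie at chr10:48294682-48294931 (Pmp22, plus strand), chr20:21054442-21054691 (Egr2, minus strand), chr10:88361662-88361911 (Gfap, minus strand) and chr20:12381082-12381331 (S100b, minus strand). Capitals would mark the letters ACAAAG or ACAATG, a core of Sox sites, or GCGNGGGCG, a core of Egr sites, on either strand, and none of these 4 windows holds them.
Pmp22: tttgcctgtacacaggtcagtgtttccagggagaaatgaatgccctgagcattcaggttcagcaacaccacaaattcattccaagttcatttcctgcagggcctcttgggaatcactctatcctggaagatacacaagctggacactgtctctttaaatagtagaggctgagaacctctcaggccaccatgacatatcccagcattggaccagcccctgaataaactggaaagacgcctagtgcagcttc
Egr2: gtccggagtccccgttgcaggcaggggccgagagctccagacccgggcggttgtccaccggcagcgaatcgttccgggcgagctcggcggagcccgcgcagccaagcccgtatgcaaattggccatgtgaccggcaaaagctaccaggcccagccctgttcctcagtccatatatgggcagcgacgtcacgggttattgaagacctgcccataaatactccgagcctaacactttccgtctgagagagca
Gfap: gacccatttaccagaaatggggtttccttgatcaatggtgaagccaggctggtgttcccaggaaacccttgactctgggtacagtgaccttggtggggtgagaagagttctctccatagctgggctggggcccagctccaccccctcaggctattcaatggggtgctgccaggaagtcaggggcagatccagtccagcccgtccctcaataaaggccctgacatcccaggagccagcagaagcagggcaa
S100b: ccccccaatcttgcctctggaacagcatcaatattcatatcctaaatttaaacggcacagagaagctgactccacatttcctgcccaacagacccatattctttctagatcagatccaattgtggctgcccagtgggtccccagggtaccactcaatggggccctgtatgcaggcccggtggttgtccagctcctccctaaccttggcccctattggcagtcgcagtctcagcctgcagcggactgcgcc

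In the RefSeq promoter table used here, 5 of the 8 genes were matched, and Sox10, Pmp2 and Erbb3 were not. Mbp, the fifth, has 2 starts. The first window, at chr18:78130402-78130651 on the plus strand, also holds none of the letters. The second, at chr18:78209995-78210244, lies inside the gene downstream of the first start, and holds a Sox core 240, 197 and 162 bases before that start. Of 33469 promoter windows of the same length, 25.3% hold either Sox core (ACAAAG 16.3%, ACAATG 11.1%) and 4.29% hold the Egr core. GC content is 48% before Pmp22, 54.8% before S100b, 57.6% before Gfap and 62% before Egr2, with a median of 51.2% over all windows.

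Counts per library summed to between 36286191 and 39476110, so that 3 counts, taken as the floor of detection, equal 0.0760 to 0.0827 CPM. Levels are given as CPM, the counts scaled by the library total, and fold changes come from edgeR after TMM scaling, neonate over adult, so that a positive log2 value is a higher level in neonates. A gene passed the test at a Benjamini-Hochberg adjusted p under 0.05 over all genes tested. An exact permutation test of 2 libraries against 2 cannot go below p = 0.333. All 12 glomus cell markers, Th among them, were expressed in every library. Their summed level was 6513 and 5406 CPM in neonates and 7666 and 6562 CPM in adults. That sum includes Chga, which parathyroid cells share and which also differed between the neonatal libraries. Of the 9 markers of central glia, 8 were too low to be tested, at 0.861 CPM or less in every library (Olig2, which marks oligodendrocytes, had 0 counts throughout, which allows up to 0.0760 to 0.0827 CPM). Pth, the parathyroid hormone gene, was at 1595 CPM in neonatal replicate 1, 194 CPM in neonatal replicate 2 and 0 in both adult libraries, and Gcm2, the parathyroid transcription factor, at 19.9, 2.83, 0 and 0 CPM. The 2 neonatal libraries thus differed in markers of another gland.

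Of the 8 glial genes, 3 were higher in neonates (Sox10, Pmp2 and Erbb3) and 1 was lower (Gfap), while Mbp, Pmp22, S100b and Egr2 did not pass the test. Over all genes tested, 31.2% were higher and 31.1% lower in neonates, 62.3% together. At a fold change of at least 2, Pmp2 was the 1 glial gene higher and Gfap the 1 lower, where 7.68% and 13.2% of all genes were called. The median log2 fold change was 0.16 over the 8 genes and -0.0029 over all genes. The 8 genes therefore did not move together with age. In contrast, 3 of them (Mbp, Pmp2 and Egr2) were over 2-fold lower in neonatal replicate 1 than in neonatal replicate 2, as were 1.68% of all genes (1.44% after TMM scaling, 3.47% in either direction), and Pmp22 was the fourth over 1.5-fold lower, as were 4.67% (8.91% in either direction). None of the 8 was over 1.5-fold higher in neonatal replicate 1. Between the adult libraries none of the 8 differed by over 1.5-fold, where 4.29% of all genes did, and 0.896% by over 2-fold.

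**Figure D1:**
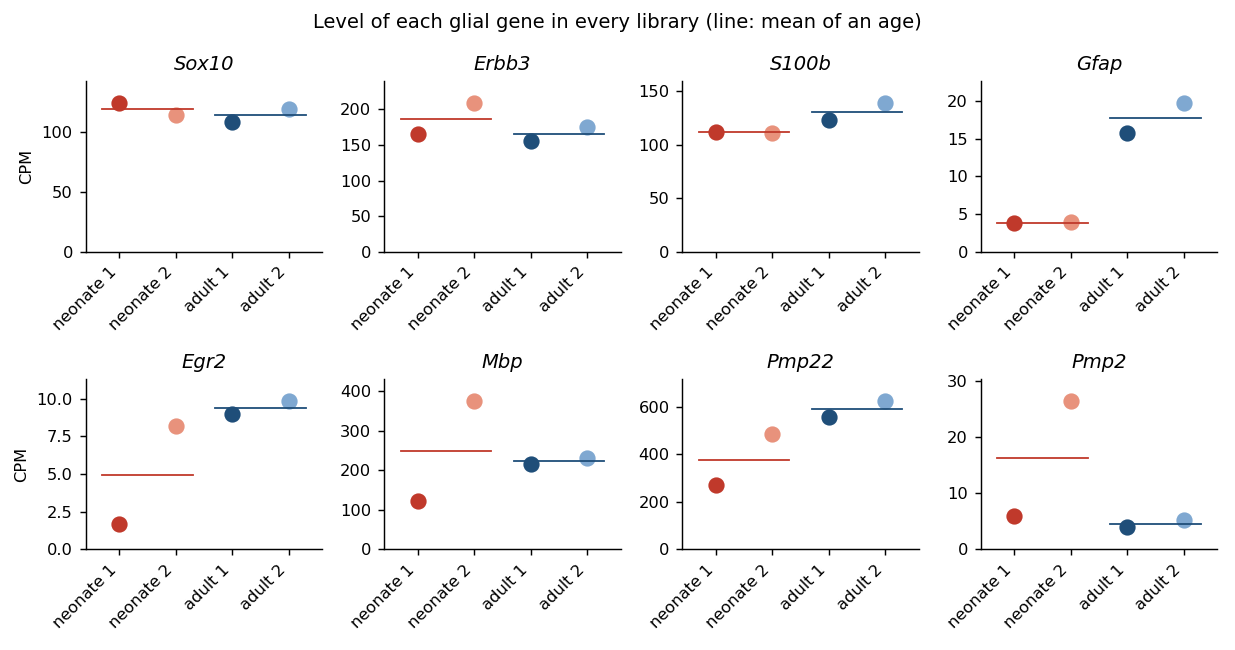
CPM of each of the 8 glial genes in each library (points; lines are the mean of an age; vertical axes in CPM, neonatal and adult libraries along the horizontal axis). The adult libraries lie close to each other for every gene, while Egr2, Pmp2, Mbp and Pmp22 are 1.79 to 4.91 times lower in neonatal replicate 1 than in neonatal replicate 2.

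Sox10, the lineage factor, was almost level. Its CPM were 124 and 114 in neonates and 109 and 120.1 in adults (119 ± 7.19 against 114 ± 7.96, SD, n = 2), and the ages overlapped. After TMM scaling, the neonatal libraries (138 and 122) lay above the adult libraries (101 and 109.5), a log2 fold change of 0.31 ± 0.088 (SE, adjusted p = 0.013). This call is small and depends on the scaling: with library size alone the log2 fold change was 0.061 (adjusted p = 0.57), and it was 0.22 (0.091) without neonatal replicate 1 and 0.25 (0.066) without adult replicate 1, with adjusted p from 0.0023 to 0.57 over all alternatives. Sympathetic neuron markers, whose ganglia hold satellite glia, were summed at 2169 and 1843 CPM in neonates and 1370 and 1117 CPM in adults. Of these markers, 10 of 11 were higher in neonates, where 31.2% of all genes were, and their part in the result was not tested.

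Erbb3, the neuregulin receptor, was at 165 and 209 CPM in neonates and at 155 and 175 CPM in adults (187 ± 30.7 against 165 ± 14.4). Neonatal replicate 1 lay between the adult libraries. On the TMM scale the neonatal libraries (183 and 223) were above the adult libraries (143 and 160), with a log2 fold change of 0.42 ± 0.11 (SE, adjusted p = 0.0073). With library size alone the value was 0.18 and the call was lost (adjusted p = 0.22, range over the alternatives 4.9e-05 to 0.22). That scaling moved the median of all genes to -0.25, and relative to the median both Sox10 and Erbb3 stayed above it.

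S100b had the smallest age difference of the 8 genes after TMM scaling, though not in CPM, where Sox10 differed less. It was at 112 and 111 CPM in neonates and at 123 and 139 CPM in adults (111.5 ± 0.651 against 131 ± 11.3). The ages did not overlap in CPM, as for 83.1% of all genes, but did after TMM scaling, where 83.0% of all genes did not, and the log2 fold change was 0.017 with a 95% interval from -0.17 to 0.20 (adjusted p = 0.86). Its sign changed with the scaling, to -0.23 with library size alone (adjusted p = 0.046, range over the alternatives 0.046 to 0.95). By the RefSeq annotation, S100b overlaps Dip2a, which was lower in neonates (19.9 and 18.3 CPM against 28.1 and 32.3 CPM, log2 fold change -0.41), and the strand setting of the counting is not given in the sources used here.

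Gfap had the lowest adjusted p of the 8 genes for age. Its CPM were 3.77 and 3.92 in neonates (149 and 151 counts) and 15.8 and 19.7 in adults (596 and 715 counts). Both neonatal libraries were far below both adult libraries and within counting error of each other, with a ratio of 1.04 (exact 95% counting interval 0.823 to 1.31). Gfap was 3.88-fold higher in adults, a log2 fold change of -1.96 ± 0.19 (SE, adjusted p = 3.8e-05). Leaving out any library kept the log2 fold change between -2.10 and -1.80, and over all alternatives the adjusted p was at most 0.00035. Adipoq, an adipocyte hormone gene, was also higher in adults (2.15 and 1.84 against 12.6 and 14.4 CPM). Of the adipocyte markers, 4 of 8 tested were lower in neonates, where 31.1% of all genes were. Adipocyte markers summed to 171 and 243 CPM in neonates against 220.4 and 287 CPM in adults. The part of such tissue in the result was not tested. Gfap and S100b, both used as glial markers, thus differed in their age pattern.

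Egr2, the myelin-inducing factor, was at 1.67 CPM in neonatal replicate 1 and 8.21 CPM in neonatal replicate 2, against 8.97 and 9.84 CPM in adults (66, 316, 339 and 357 counts). The second neonatal library was near the adult level, and the first stood apart from the other three. Its ratio between the neonatal libraries, 4.91 (exact 95% counting interval 3.75 to 6.50), was the largest of the 8 genes. The log2 fold change with age was -0.70 ± 0.53 (SE, adjusted p = 0.28). Without neonatal replicate 1 it was 0.025 (adjusted p = 0.92), and without neonatal replicate 2 it was -2.21 (3.6e-05), the ends of the range over the alternatives.

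Mbp, the protein that compacts the inner faces of the myelin membrane, was at 123 CPM in neonatal replicate 1 and 375 CPM in neonatal replicate 2, with 215 and 231 CPM in adults. The neonatal libraries lay on either side of the adults, 3.05 times apart (counting interval 2.95 to 3.15). The log2 fold change was 0.39 ± 0.37 (SE, adjusted p = 0.38), and its direction depended on the library: 0.97 without neonatal replicate 1 (adjusted p = 2.0e-05) and -0.58 without neonatal replicate 2 (0.00078), over a range of alternatives that reached 0.74. No age difference of Mbp can be stated from these libraries.

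Pmp22, a membrane protein of compact myelin that other cells also express, was at 269.6 and 484 CPM in neonates and at 556 and 624 CPM in adults. Both neonatal libraries were below both adults in CPM, as were 55.3% of all genes, but the groups overlapped after TMM scaling. The neonatal ratio was 1.79 (counting interval 1.75 to 1.84). The log2 fold change was -0.41 ± 0.21 (SE, adjusted p = 0.11). It passed without neonatal replicate 2 (-0.85, adjusted p = 0.00012) and with library size alone (-0.65, 0.032), but not without neonatal replicate 1 (-0.065, 0.66, the ends of the range being 0.00012 and 0.66).

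Pmp2, a fatty acid-binding protein of peripheral myelin, was at 5.98 and 26.5 CPM in neonates and at 3.997 and 5.21 CPM in adults (236, 1020, 151 and 189 counts). Both neonatal libraries were above both adults, as in 27.9% of all genes, but neonatal replicate 1 was close to them. The neonatal ratio was 4.43 (counting interval 3.84 to 5.13). Pmp2 was 4.14-fold higher in neonates, a log2 fold change of 2.05 ± 0.54 (SE, adjusted p = 0.0091). The size rested on neonatal replicate 2: without it the log2 fold change was 0.66 (adjusted p = 0.046), and without neonatal replicate 1 it was 2.75. DESeq2 gave 0.054 for the adjusted p, the highest of the alternatives, whose lowest was 5.8e-07. Among the myelin genes of the set, Pmp2 alone had its lower neonatal library still above the adults.

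**Figure D2:**
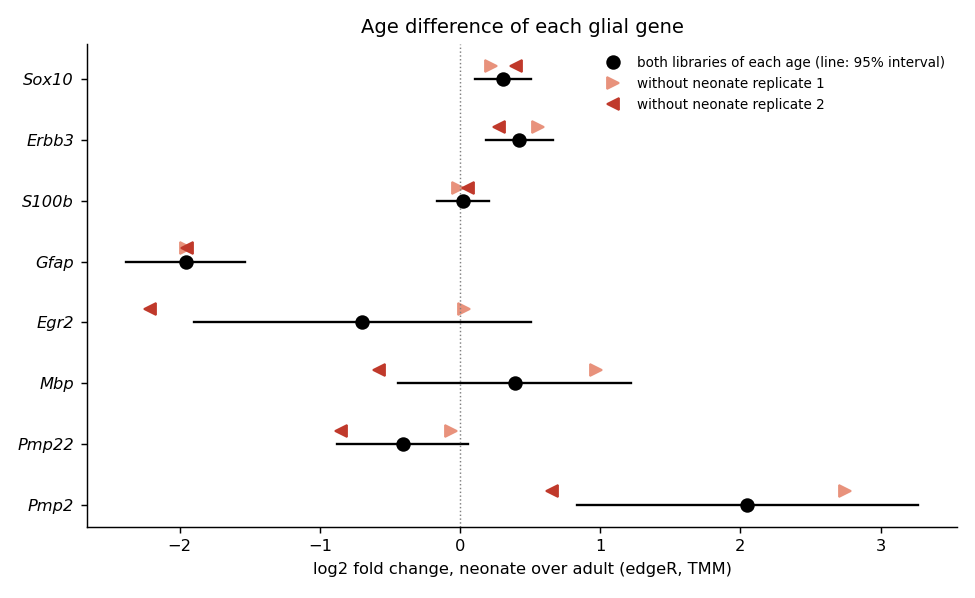
Log2 fold change of each glial gene, neonate over adult, with its 95% interval (black, edgeR after TMM scaling) and without either neonatal library (red triangles). Gfap stays near -1.95 whichever neonatal library is left out, while Mbp moves from 0.97 to -0.58 and Egr2 from 0.025 to -2.21.

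Each gene was also set against Sox10 within a library, a ratio that no scaling between libraries can change. CPM were not divided by length, so only differences between libraries are read. Since Sox10 was almost level in CPM, the ratios largely restate the CPM differences given above and are no separate support. The log2 ratio of Mbp to Sox10 was -0.02 in neonatal replicate 1, 1.71 in neonatal replicate 2 and 0.98 and 0.95 in adults. That of Egr2 was -6.22, -3.80, -3.60 and -3.61 in the same order, and that of Pmp22 was 1.12, 2.08, 2.35 and 2.38. The adult libraries gave nearly equal ratios, and neonatal replicate 1 gave the lowest ratio for these 3 genes. For Pmp2 the ratios were -4.38, -2.11, -4.77 and -4.53, so that neonatal replicate 2 stood out on the high side. Gfap was at -5.04 and -4.86 in neonates and -2.79 and -2.61 in adults, and S100b at -0.15 and -0.04 against 0.17 and 0.21. Erbb3 was at 0.41 and 0.87 against 0.51 and 0.55. Of the 7 genes, 5 did not overlap between the ages, 4 lower and 1 higher in neonates, where 55.7% of all genes tested were lower without overlap and 22.4% higher by the same ratio, so the count is near the background. With S100b in place of Sox10 the count was again 5 of 7, with 2 lower (Pmp22 and Gfap) and 3 higher in neonates (Sox10, Pmp2 and Erbb3), where 40.6% and 37.8% of all genes were.

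**Figure D3:**
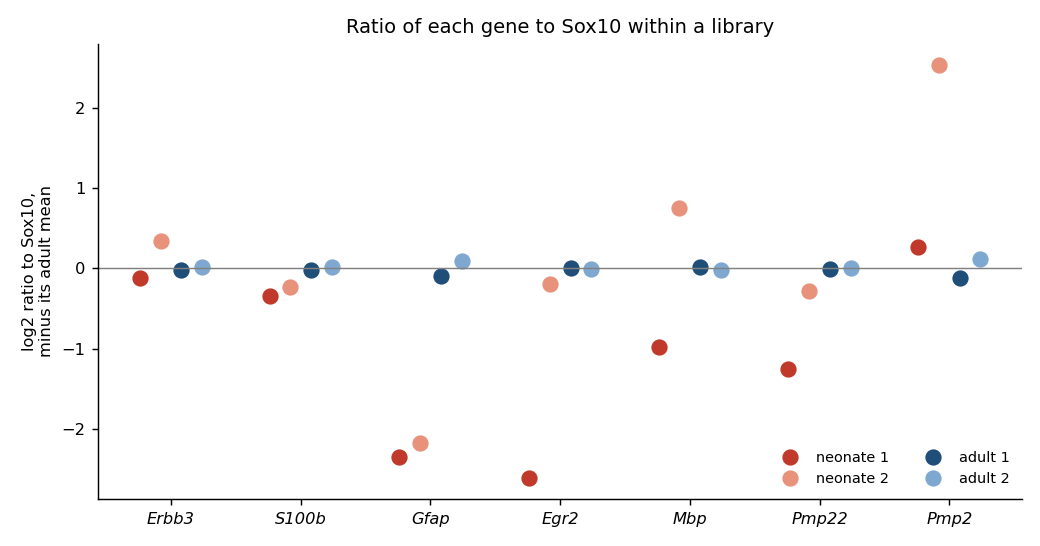
Log2 ratio of each of the other glial genes to Sox10 within each library, minus the mean of the adult libraries for that gene (points; 0 is the adult mean). Mbp, Egr2, Pmp22 and Pmp2 are spread between the neonatal libraries, while Gfap lies far below 0 in both, with a mean of -2.26.

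Other myelin protein genes were read as a list in the same 2 neonatal libraries, so they do not replicate the pattern between them. The list is not limited to compact myelin, since it holds Ncmap and Mpzl1, described below, and its counts are therefore not a result for compact myelin alone. Of 11 tested, 1 was higher in neonates (Cmtm5), 4 were lower and 6 did not pass, with a median log2 fold change of -0.31. Of all genes, 31.2% were higher and 31.1% lower. Between the neonatal libraries, 7 of 11 were over 2-fold lower in replicate 1 than in replicate 2, where 1.68% of all genes were. Of these 7, Gjb1 (2 and 51 counts in that order, named after its values were seen) and Ncmap (4 and 24 counts) rest on few counts. Between the adult libraries 1 of 11 differed over 1.5-fold, where 4.29% of all genes did. Mal, a lipid raft protein of myelin, was at 32.4 and 72.6 CPM in neonates and 79.2 and 95.4 CPM in adults, a ratio of 2.24 between the neonatal libraries (counting interval 2.10 to 2.39), and did not pass the test for age (log2 fold change -0.50, adjusted p = 0.15). Cnp, a myelin enzyme, was closer between the neonatal libraries and lower than in adults, at 125 and 145.5 against 189 and 234 CPM (-0.40, adjusted p = 0.0097). Mpzl1, a receptor-like protein of many cell types, did not share the pattern, at 134 and 136 against 148 and 144 CPM (ratio 1.02 between the neonatal libraries, log2 fold change 0.13, adjusted p = 0.16). Ncmap, a protein of uncompacted myelin, had the largest age difference of the list (-2.19, adjusted p = 0.013) at low levels, 0.101 and 0.623 against 1.88 and 2.01 CPM. Prx, named after its values were seen, encodes periaxin and was at 24.6, 78.7, 56.9 and 62.3 CPM. The summed level of the list was 399 and 536 CPM in neonates and 578 and 651 CPM in adults. The counts by age rested on the library: without neonatal replicate 1, 3 were higher and 3 lower, and without neonatal replicate 2, 7 were lower.

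**Figure D4:**
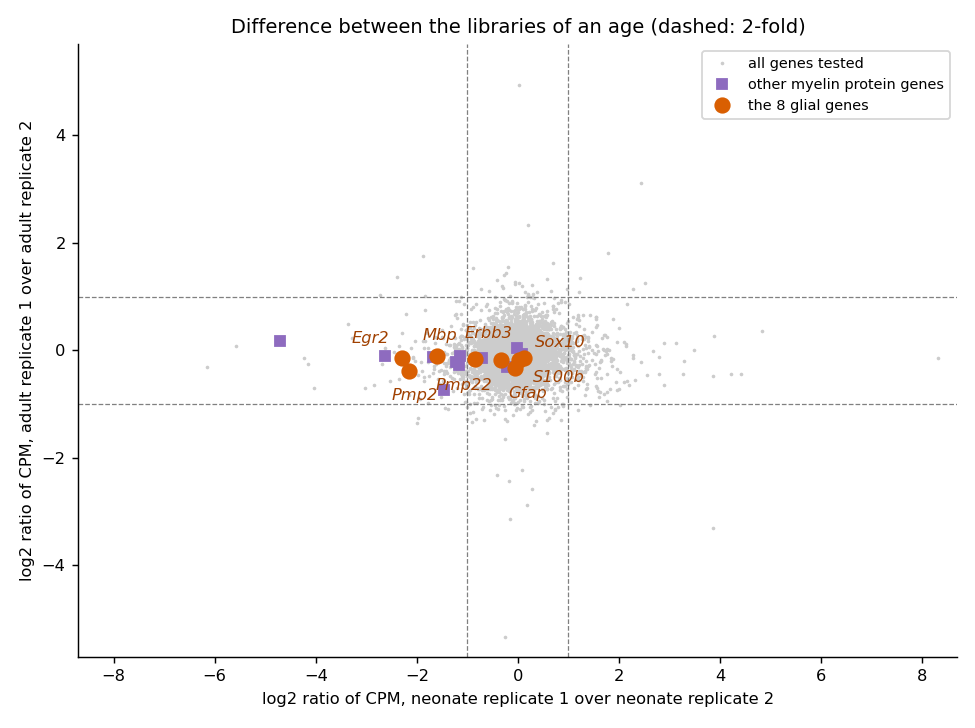
Log2 ratio of CPM between the neonatal libraries (horizontal axis) and between the adult libraries (vertical axis) for 13759 genes with counts in every library (grey), the 8 glial genes (orange) and other myelin protein genes (purple); dashed lines mark 2-fold. Egr2, Pmp2 and Mbp lie left of the 2-fold line with most of the myelin genes, while Sox10, S100b, Gfap and Erbb3 lie near 0.

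What else moved between the neonatal libraries is given beside this result. The parathyroid genes went the other way, with Pth 8.21 and Gcm2 7.04 times higher in neonatal replicate 1, and Chga, which glomus cells and parathyroid cells share, at 1552 CPM there and 740.1 CPM in neonatal replicate 2. The summed level of parathyroid markers was 3168 and 937.6 CPM in neonates and 848 and 723 CPM in adults. Chga is part of this sum, and Pth and Gcm2 had no counts in adults. The adult sums are therefore no measure of parathyroid tissue. The mitochondrial genes took 18.7% and 15.6% of the counts in neonates. Skeletal muscle markers summed to 23.6 and 32.1 CPM and adipocyte markers to 171 and 243 CPM. The part of nerve content or of neighbouring tissue in the myelin differences was not tested. Apart from Kcnj10, with 0 and 5 counts, none of the 11 sustentacular and satellite glia markers tested differed by over 1.5-fold between the neonatal libraries. Of all genes, 8.91% did, so this count is near the background.

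Of 7 enzymes of myelin lipids, 3 were lower in neonates (31.1% of all genes) and 4 did not pass (median -0.17). Ugt8, which makes galactosylceramide, followed Mbp in the neonatal libraries, at 12.97 and 38.0 CPM against 27.7 and 28.8 CPM in adults, while Cers2 and Elovl1, which make very long-chain lipids in many tissues, were between 92.9 and 130.5 CPM in every library. Elovl7 was lower in neonates (log2 fold change -1.20, adjusted p = 0.0091). Of 11 genes of the node of Ranvier and its flanks, where myelin meets the axon, 7 were lower in neonates (31.1% of all genes). Of the others, 1 was higher (31.2%) and 3 did not pass, and the median of the list was -0.94. Cadm1, an adhesion molecule, was at 44.6 and 44.0 CPM in neonates and 174 and 157 CPM in adults (-1.65, SE 0.088). Nfasc, the neurofascin gene, was lower (-0.49) and Epb41l3, a scaffold protein, higher in neonates (0.48). Many of these genes are also expressed by neurons and endocrine cells, and in contrast to the myelin proteins they were close between the neonatal libraries, with Gldn, named after its values were seen, the exception at 5.98 and 14.2 CPM.

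Transcription factors of the Schwann cell lineage went both ways: of 13 tested, 5 were higher in neonates (31.2% of all genes), 4 were lower (31.1%) and 4 did not pass. Tfap2a, which marks early glial precursors, had a log2 fold change of 1.45 (adjusted p = 0.0014), at 4.66 and 5.17 CPM against 2.20 and 2.07 CPM. Zeb2 (-0.88), which myelination needs, and Jun (-0.65), a factor of immature and injured Schwann cells, were lower, and Nab1, a cofactor of Egr2, did not pass (-0.19, adjusted p = 0.12). Sox2, named after its values were seen, was higher in neonates (0.84). Pou3f1 (Oct6), named likewise and known to act before Egr2, was at 2.79 CPM in neonatal replicate 1 and between 6.83 and 7.51 CPM in the other three libraries, and so, like Egr2, was lowest in neonatal replicate 1. Of 14 genes of immature and nonmyelinating Schwann cells, 5 were higher (31.2% of all genes), 7 lower (31.1%) and 2 did not pass. Gap43, a growth protein of axons and immature Schwann cells (0.96), Mcam (0.63) and Fabp7 (2.84, at 1.87 and 1.77 against 0.106 and 0.496 CPM) were higher in neonates, while Scn7a, an atypical sodium channel of nonmyelinating Schwann cells, was lower, at 248 and 255 CPM against 855 and 1372 CPM (-1.90, SE 0.18).

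Erbb3 belongs to the neuregulin pathway, whose list here also holds other Schwann cell genes such as Lgi4. Of the 10 genes tested in this list, 1 was higher in neonates (31.2% of all genes), 5 were lower (31.1%) and 4 did not pass. The gene that was higher, Erbb2, encodes the kinase partner of Erbb3, and was at 41.0 and 51.8 CPM in neonates and 26.2 and 30.3 CPM in adults (log2 fold change 0.96, adjusted p = 0.00023; named after its values were seen). The proteases that cut neuregulin were lower in neonates: Bace1 at 3.19 and 3.90 against 18.6 and 19.2 CPM (-2.17), Adam10 (-1.25) and Adam17 (-0.44). Nrg1, the ligand, did not pass (3.88 and 3.64 against 5.61 and 6.86 CPM, adjusted p = 0.11), nor did Lgi4, a secreted Schwann cell protein (0.13). Erbb4 was at 0.053 CPM or less in every library, under the floor of detection.

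Of 11 markers of sustentacular and satellite glia tested beside S100b and Gfap, 4 were higher in neonates (31.2% of all genes) and 7 lower (31.1%). Their median was -0.66. Kcnj10, a potassium channel of satellite glia, was at 0 and 0.130 CPM in neonates and at 1.85 and 3.53 CPM in adults, the same direction as Gfap. Apoe (-0.67) and Sparcl1 (-0.53), abundant in glia but also in other cells, were lower in neonates, and Vim, an intermediate filament protein of many cell types, was higher (0.42). Fabp7, Nes and Cdh19 also stand in the list of immature Schwann cells. Genes listed as perineurial and endoneurial were lower in neonates in 8 of 10 cases, where 31.1% of all genes were. Ngfr and Sox9, in this list, also stand in the lists of immature Schwann cells and of Schwann transcription factors. Cldn1, of the perineurial barrier, was at 31.9 and 39.1 CPM against 154 and 185 CPM (-2.01).

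**Figure D5:**
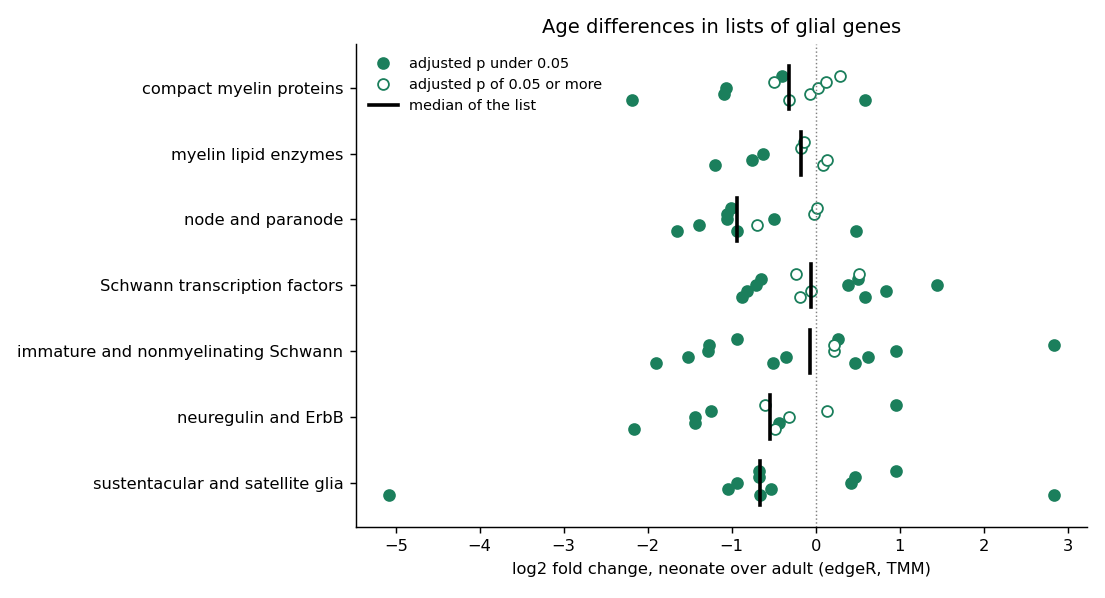
Log2 fold change, neonate over adult, of the tested genes of 7 glial gene lists without the 8 genes themselves (filled: adjusted p under 0.05, open: not), with the median of each list as a bar. The node and paranode list (median -0.94) and the sustentacular list (-0.66) lie lowest, and the farthest point is Kcnj10, with 0 counts in neonatal replicate 1.

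The genes most like each of the 8 over the 4 libraries were found by the root mean square difference of centred log2 CPM, as a description over 4 points only. Sox10 lay nearest to Zfp182 (0.011), S100b to Ccdc86 (0.012) and Erbb3 to Arhgap19 (0.012). Gfap was nearest to Rtl6 (0.023) and Cidec (0.045), Pmp22 to Tnfaip6 (0.036), and Egr2 to Smoc1 (0.046). For Mbp, with its unusual neonatal spread, the nearest was Izumo4 (0.11), and for Pmp2 the nearest of 13842 genes, Terb1, was still 0.33 away. Of the 8 genes themselves, Sox10 and S100b were closest to each other (0.15) and Pmp2 and Gfap farthest apart (1.96).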

How the data were processed

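RNA of CBs pooled from neonatal (day 5, 6 pups) and adult (day 21, 3 rats) animals made 2 libraries per age, by the labels. The authors deposited estimated counts per gene, from STAR and Salmon 1.5.2 on Rnor_6.0, summed to genes and neither normalized nor filtered; between 5.02% and 6.19% of genes per library have fractional values, and gene-level sums hide the transcripts of a gene. After rounding, the tests were run with edgeR 4.0.16 in R 4.3.3 (TMM, quasi-likelihood test, no covariates, Benjamini-Hochberg adjustment), with DESeq2 1.42.0 and limma 3.58.1 as alternatives, and in Python 3.11.15 with pandas 2.3.3 and scipy 1.17.1. Matching by symbol took out 664 genes of another biotype, and the 13843 genes that reached 1 CPM in 2 or more libraries were tested, at depths whose floor is given with the libraries. Counting intervals are exact binomial and cover counting error only. The members and lists were chosen with earlier results of these data known. From each list, the 3 genes with the highest mean CPM and the called gene with the largest change are named first; others are said to be named after their values were seen. Replicate numbers were not treated as pairing the libraries in the main fit. The procedure was tested on simulated data. Alternatives were other scalings, filters and tools, a replicate block and each library left out. Some genes, and one alternative reference gene, are not reported here.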

Additional observations from a re-analysis of the deposited data

How the results depend on the processing

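With library size alone, 704 genes were higher in neonates by at least 2-fold in place of 1063 and 2550 were lower in place of 1822, and at any fold 2584 were higher in place of 4325 and 6000 lower in place of 4300; the share of 2-fold calls that were higher was 21.6% against 36.8%, and 1 of the 8 glial genes was higher and 3 were lower. With a mean of at least 5 CPM, where fewer genes were tested, 654 were higher and 1169 lower. With the replicate block, 3 glial genes were lower: Gfap, Pmp22 (-0.46, adjusted p = 0.00036) and Egr2 (-1.02, 0.0064). The labels do not say whether the replicate numbers pair the libraries. The differences between replicates 1 and 2 of the ages correlated at -0.015 over the genes tested. That value shows no shared difference over all genes but cannot exclude pairing. No call of the other 5 genes changed under the block. Leaving out each library, 1 to 4 glial genes were lower, and the log2 fold change ran from -0.58 to 0.97 for Mbp, -2.21 to 0.025 for Egr2 and -0.059 to 0.098 for S100b. S100b had a sign that turned with the choice, -0.23 with library size alone, -0.0077 without a filter and -0.019 with a mean of at least 5 CPM, and the cause was not tested. Over all alternatives, of the counts of genes and of the 8 genes 106 values stayed within their limits and 8 moved, and of the values for single genes, lists and ratios 628 stayed, 40 moved, 7 reversed, 6 gained a call and 5 lost one. With 2 libraries per age, one neonatal library decides the values of Mbp, Egr2, Pmp22 and Pmp2. Depth does not limit the 8 genes, but leaves Erbb4 and Olig2, and Kcnj10 in neonates, near the floor.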

Other observations

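Gene families of the glial genes were examined for their relatives. All 6 tested relatives of Pmp2 that bind fatty acids or retinoids were higher in neonates, where 31.2% of all genes were, with a median log2 fold change of 1.88. Fabp5, the fatty acid-binding protein of skin and other tissues, was at 175 and 172 CPM in neonates and 44.9986 and 52.3 CPM in adults (2.08, SE 0.090), Fabp4, of adipocytes and vessels, was slightly higher (0.51), and Crabp2, a retinoic acid-binding protein, was at 22.2 and 24.0 against 8.21 and 8.90 CPM (1.68). In contrast to Pmp2, Fabp5 was level between the neonatal libraries. Among these relatives, Fabp7 also stands in the lists of immature Schwann cells and sustentacular glia, and Fabp4 in that of adipocytes.

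Of 10 tested relatives of S100b, 5 were higher in neonates (31.2% of all genes), 2 lower (31.1%) and 3 did not pass. S100a10, an annexin partner, was at 183 and 215 CPM against 108 and 115 CPM (1.08), and S100a8, of neutrophils and monocytes, at 1.67 and 2.16 against 0.265 and 0.413 CPM (2.73), while S100a4 was lower (-0.33) and S100a6 did not pass (-0.074, adjusted p = 0.66). Of 5 relatives of Pmp22, Emp1 did not pass (-0.22), Emp3 (0.37) and Perp (1.69) were higher and Tmem47 (-0.68) and Emp2 (-1.27, named after its values were seen) lower in neonates. Of the Egr genes, Egr3 was lower, at 0.659 and 0.675 against 4.29 and 6.28 CPM (-2.73), and Egr1 did not pass (-0.14, adjusted p = 0.19). Of 9 intermediate filament genes beside Gfap, 6 were higher (31.2% of all genes), among them Prph of peripheral neurons (0.61), and 1, Ina, did not pass (0.20). The remaining 2 were lower (31.1%), Synm (-1.98), a cross-linking filament protein, and Des (-1.05), of muscle, the latter named after its values were seen.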
